A study of Mus musculus with 4 samples.

Results

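The Notch genes examined here were 3 ligands (Jag1, Jag2 and Dll1), 4 receptors (Notch1, Notch2, Notch3 and Notch4) and 3 target genes (Hes1, Hey1 and Heyl), measured by RNA sequencing in cultured hair follicle mesenchymal cells of the mouse. They were taken by gene name from the 51826 genes of the deposited count table, and each of the 10 names matched 1 gene. The set was chosen by its members' place in the pathway with the counts of all 4 libraries already known, so the values below are descriptions and no p-value is attached to them. The libraries came from dermal papilla cells (DPCs), which sit in the hair bulb, and dermal sheath cells (DSCs), which line the outside of the follicle. Both were isolated from vibrissa (whisker) follicles of young C57BL/6J mice carrying an EGFP transgene and were grown in DMEM with serum. The labels list the genotype of all groups as WT and name no other treatment than passage. Passage 3 cells are called low passage and passage 9 cells high passage, and there was 1 library for each cell type at each passage. The number of mice behind a culture was not given, and with 1 library a group, passage, culture and library cannot be told apart.

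Notch signalling passes between touching cells. A ligand of the Jagged or Delta family on one cell binds a Notch receptor on its neighbour, the receptor is cut by ADAM proteases and by γ-secretase, and its freed intracellular part joins the DNA-binding protein RBPJ to switch on target genes. The best known targets encode the HES and HEY repressors. In skin and hair follicles the pathway is known for roles in epithelial differentiation and in exchange between the epithelium and the dermal papilla, while NOTCH3 and HEYL are best known from the muscle cells of vessel walls.

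The libraries held between 34981284 and 47604059 counts. Where 4 values follow each other, they are for DPCs at passage 3, DPCs at passage 9, DSCs at passage 3 and DSCs at passage 9, in this order. Levels are given as CPM, counts scaled to a common library size by TMM, and levels of different genes are set beside each other as FPKM, which also corrects for transcript length. A difference is called when it reaches 4-fold, an absolute log2 fold change of 2, among the 16734 genes with a mean of at least 10 counts over the 4 libraries. Of the 10 members 9 met this minimum, and Jag2, with a mean of 9.5 counts, did not. Bracketed intervals are 95% counting intervals between 2 libraries and say nothing of how replicate cultures would vary. Changes are written as passage 9 over passage 3.

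Fibroblast markers were abundant in all 4 libraries, with summed levels of 17300, 6398, 25407 and 22779 CPM over 7 genes, but differed with passage. In DPCs Col1a1 and Col3a1 were 5.95-fold and 8.01-fold lower at passage 9, while Pdgfra was 2.67-fold higher. In DSCs Dcn was 22.6-fold higher at passage 9. Lum was at 0 in high-passage DPCs and low-passage DSCs. The sheath and smooth muscle list, headed by Acta2, was also high in the DPC libraries. The 8 papilla markers summed to 880, 591, 500 and 859 CPM and did not separate the cell types as a list. Sox2 was higher in DPCs at both passages, with 1677, 1491, 269 and 178 counts, while Ncam1 was higher in DSCs, with 3642, 1673, 11755 and 15584. Crabp1 had 22409, 14584, 1518 and 20405 counts and Lef1 508, 2, 101 and 55, both higher in DPCs at passage 3 and in DSCs at passage 9. Corin was at 0 at passage 3 and Alpl had between 6 and 23 counts. The keratinocyte genes Krt5, Krt14 and Krt15 and the melanocyte genes Tyr, Dct, Mlana and Tyrp1 were at 0 throughout. The 8 keratinocyte genes nevertheless summed to 0.925, 7.61, 6.17 and 55.1 CPM, mainly through Dsp, with 10, 184, 84 and 2307 counts, and Perp, with 9, 75, 131 and 172. The endothelial list of 7 genes summed to 1.69 to 6.89 CPM and the immune list of 6 genes to 63.7 to 164 CPM.

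Set side by side per length, the receptors were carried by Notch2 and Notch3, the ligands by Jag1 at low passage, and the targets by Hes1. At passage 3 the order of FPKM opened with Hes1, Jag1, Notch2, Notch3 and Notch1 in DPCs and with Hes1, Notch2, Jag1, Notch3 and Notch1 in DSCs. At passage 9 Notch2 headed both lists, and in DPCs Dll1 stood above Jag1.

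**Figure D1:**
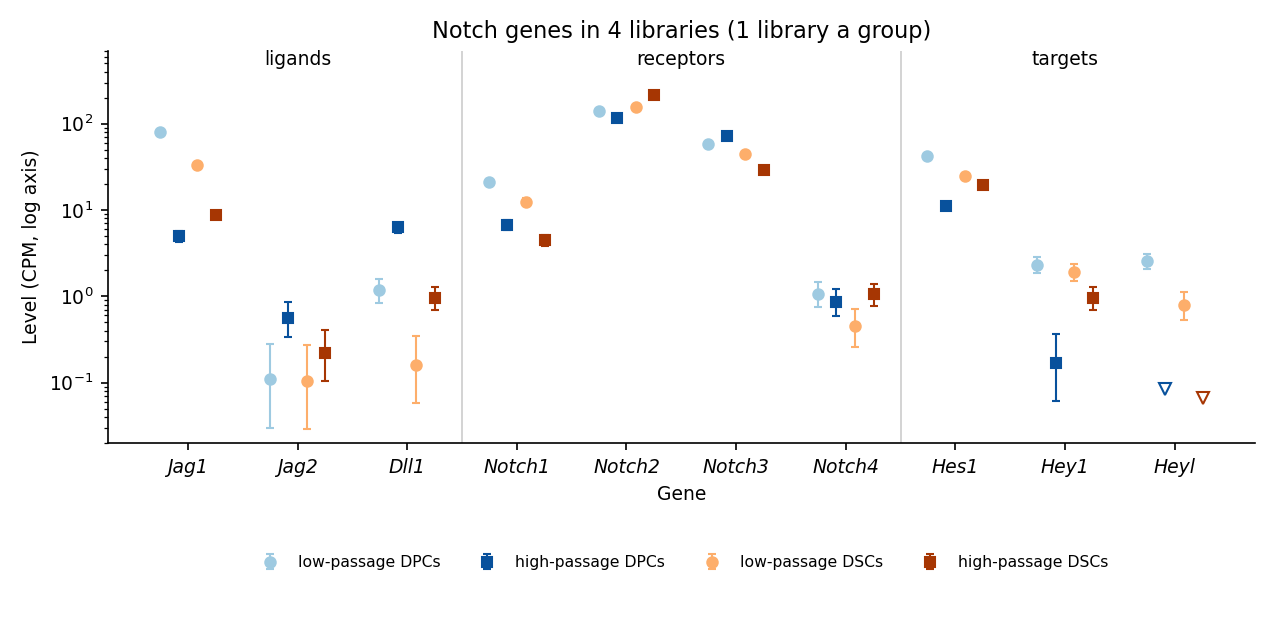
Level of each Notch gene in CPM on a log axis, where points are single libraries, bars are exact 95% Poisson counting intervals, and open triangles mark libraries at 0 counts, drawn at the level of 3 counts. Jag1, Notch1, Hey1 and Heyl lie lower at passage 9 in both cell types and Dll1 lies higher.

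Among the 9 genes that met the minimum, 3 fell and 1 rose at least 4-fold with passage in DPCs. The genes that fell were Jag1, Hey1 and Heyl and the gene that rose was Dll1. Over all genes 4.36% were 4-fold lower and 5.58% 4-fold higher in the same comparison. In DSCs Heyl fell and Dll1 rose, where 1.16% of all genes were 4-fold lower and 2.67% higher. Both Heyl and Dll1 were thus called in the same direction in both cell types, which held for 0.508% of all genes downward and 1.27% upward. The median change of the 9 genes was -1.67 in DPCs and -0.63 in DSCs, against 0.03 and 0.00 over all genes. Jag2, just under the minimum count and so not in this median, had changes of 1.93 and 0.79. The genes nearest to the 4-fold line were Dll1 in DSCs, inside it at 2.28, and Hes1 in DPCs and Jag1 in DSCs, outside it at -1.91 and -1.88. Markers of the sheath and smooth muscle list also differed with passage, in both directions. In DPCs Acta2, Tagln, Cnn1 and Myh11 were lower at passage 9, by 3.81-fold, 3.15-fold, 3.23-fold and 16.7-fold, and Itga8 was higher. In DSCs Cnn1, Myh11 and Itga8 were higher, by 1.99-fold, 2.47-fold and 11.6-fold, and Acta2 and Tagln were lower, by 1.32-fold and 1.11-fold. Myh11 had 2882, 168, 1063 and 3160 counts and Itga8 had 6837, 34714, 1674 and 23287. The part of these and of the fibroblast, papilla and keratinocyte markers in the Notch values was not tested.

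**Figure D2:**
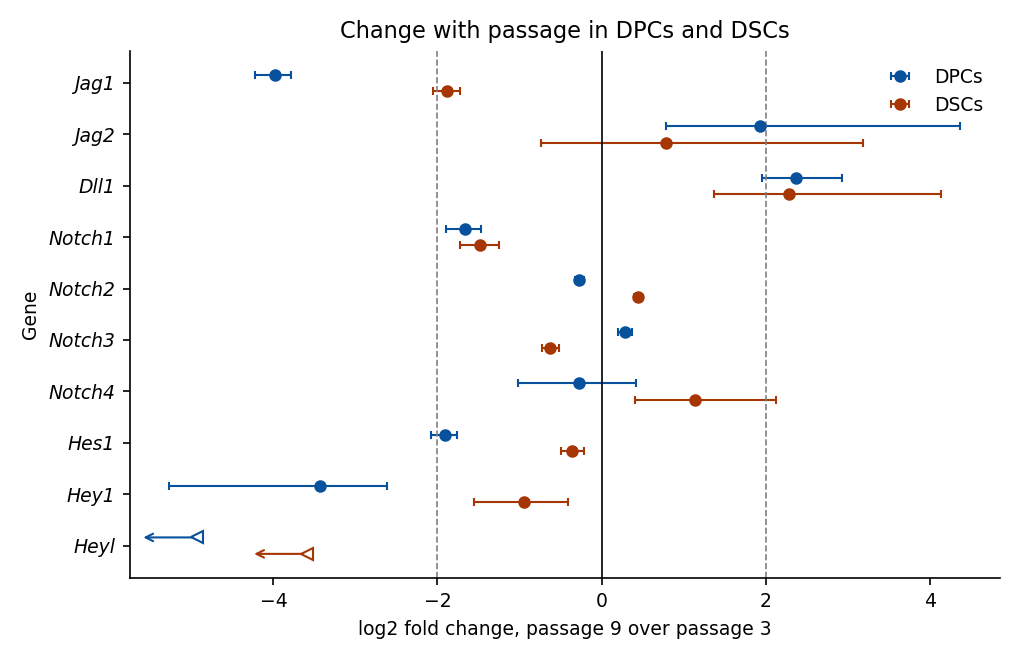
Log2 fold change of each Notch gene between passage 9 and passage 3, in DPCs (blue) and DSCs (brown). Bars are 95% counting intervals and dashed lines the 4-fold threshold. For Heyl, which had 0 counts at passage 9, arrows start at the fall against 3 counts. This is a larger fall than the near end of its 95% counting interval. Jag1 in DPCs lies at -3.98 and Dll1 lies above 2 in both cell types.

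Jag1 (ENSMUSG00000027276, chromosome 2, 137081456 to 137116644, minus strand) encodes Jagged 1, a membrane ligand of Notch receptors, and was the most abundant ligand in 3 of the 4 libraries. DPCs went from 2924 counts at passage 3 to 179 at passage 9 and DSCs from 1243 to 404, which corresponded to 79.5, 4.99, 32.8 and 8.87 CPM. Both passage 3 libraries were above both passage 9 libraries. The fall with passage was 15.9-fold in DPCs (log2 -3.98, -4.22 to -3.78), the 106th lowest change of the 16734 genes. In DSCs the difference was 3.70-fold (-1.88, -2.05 to -1.72), the 230th lowest, and stayed short of the threshold, which it passed at -2.03 when the deposited FPKM with a pseudocount of 0.1 was used. The counting intervals of the 2 cell types did not overlap. Low-passage DPCs held 2.42-fold more Jag1 than low-passage DSCs, while high-passage DPCs held 1.78-fold less than high-passage DSCs.

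Dll1 (ENSMUSG00000014773, chromosome 17, 15367354 to 15376872, minus strand) encodes Delta-like 1, a ligand that acts on neighbouring cells in many developing tissues. DPCs went from 43 counts at passage 3 to 225 at passage 9 and DSCs from 6 to 44, or 1.17, 6.27, 0.158 and 0.965 CPM. The level was higher at passage 9 in each cell type and higher in DPCs at each passage, so that high-passage DSCs came close to low-passage DPCs. The log2 rise was 2.37 (1.95 to 2.93) for DPCs and 2.28 (1.37 to 4.13) for DSCs, and these intervals overlap. With a prior count of 10 in place of 2 the rise in DSCs was 1.56, and with the deposited FPKM 1.82, both short of the threshold. A long noncoding gene on the opposite strand, A930024N18Rik, shares 20.5% of the exonic bases of Dll1 and had 0, 26, 0 and 4 counts. Since the use of strand in counting was not stated, reads of the 2 genes in the shared bases cannot be told apart. The DSC value rests on 6 counts at passage 3, and with halved counts, as if both mates of each read pair had been counted, its interval was 0.87 to 4.99.

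Jag2 (ENSMUSG00000002799, chromosome 12, 112907819 to 112929776, minus strand), the second Jagged ligand, was close to the detection limit with 4, 20, 4 and 10 counts. Its difference with passage was 1.93 (0.78 to 4.37) in DPCs, and in DSCs the interval, -0.74 to 3.18, included 0. The DPC value was 1.16 with a prior count of 10. It was 0.73 with the deposited FPKM and a pseudocount of 0.1, which is above the FPKM of Jag2 in every library. No call was made for Jag2. Dll4, a ligand best known from vessels, had 0 counts in every library, and Dll3 had 0 to 4.

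In FPKM the 3 ligands summed to 14.9 and 3.07 in DPCs at passage 3 and passage 9, and to 5.94 and 1.79 in DSCs. Jag1 made up 97.2% and 99.2% of this sum in low-passage DPCs and DSCs. Its share was 76.3% in high-passage DSCs and 27.3% in high-passage DPCs, where Dll1 made up 69.6%. The ratio of Jag1 to Dll1 accordingly went from 36.5 to 0.392 in DPCs and from 175 to 3.67 in DSCs, so the ligand message of high-passage DPCs was the 1 case in which Delta outweighed Jagged.

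**Figure D3:**
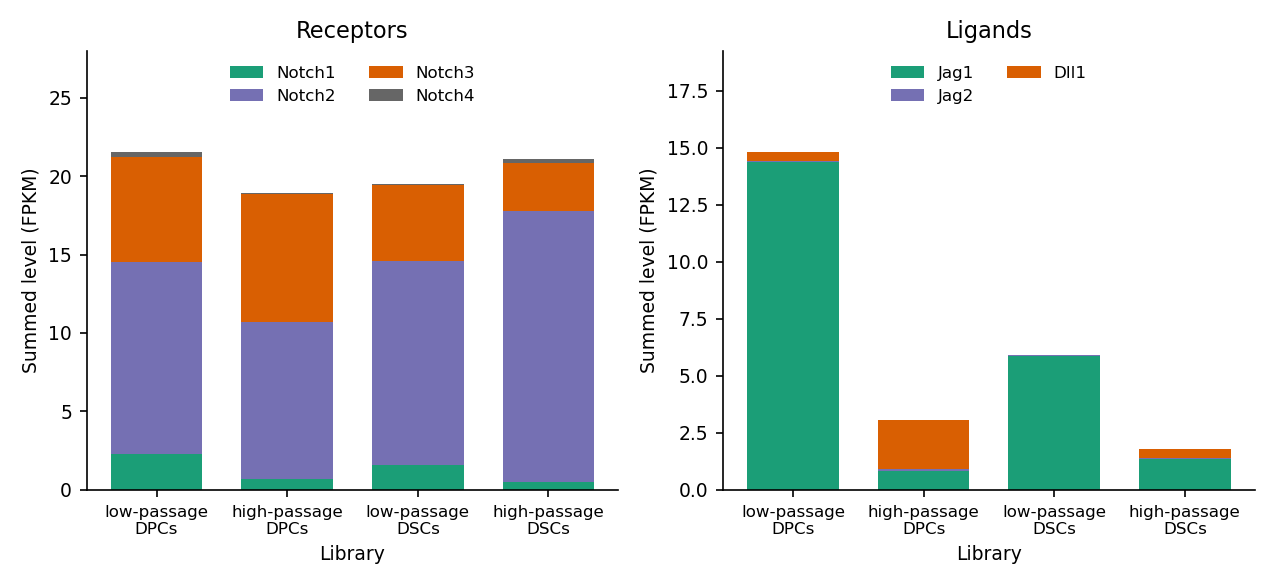
Summed FPKM of the 4 receptors (left) and of the 3 ligands (right) in each library, with 1 bar per library divided by gene and both axes starting at 0. The receptor sum stays between 19.0 and 21.5 while the ligand sum ranges from 1.79 to 14.9.

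Because Jag1 and Dll1 moved in opposite directions, the bases in front of their start sites are shown. The sequences are from RefSeq on GRCm38.p6 and cover the 250 bases before each start, 5′ to 3′ along the gene, with 2 starts for Dll1. The start of Jag1 and the inner start of Dll1 lie inside the span that the tables give for the gene.
Jag1, chr2:137116521-137116770, minus strand: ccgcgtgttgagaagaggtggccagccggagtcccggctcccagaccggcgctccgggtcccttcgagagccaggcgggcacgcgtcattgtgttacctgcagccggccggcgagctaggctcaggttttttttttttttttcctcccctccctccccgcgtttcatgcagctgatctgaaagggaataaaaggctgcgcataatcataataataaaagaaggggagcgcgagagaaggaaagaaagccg
Dll1, inner start, chr17:15375824-15376073, minus strand: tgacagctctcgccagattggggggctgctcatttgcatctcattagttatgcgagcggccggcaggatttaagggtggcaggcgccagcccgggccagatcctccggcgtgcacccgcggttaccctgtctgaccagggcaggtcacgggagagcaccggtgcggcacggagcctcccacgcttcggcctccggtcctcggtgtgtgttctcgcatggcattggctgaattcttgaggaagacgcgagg
Dll1, outer start, chr17:15376933-15377182, minus strand: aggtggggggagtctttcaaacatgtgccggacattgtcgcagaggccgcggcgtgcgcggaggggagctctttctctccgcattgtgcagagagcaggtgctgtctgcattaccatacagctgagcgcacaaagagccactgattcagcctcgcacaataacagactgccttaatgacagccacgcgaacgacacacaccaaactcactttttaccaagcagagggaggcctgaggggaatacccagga
The table of promoters held 8 sequences for 7 members and none for Hes1, Hey1 and Heyl. The letters GTGGGAA, bound by RBPJ, or the reverse complement TTCCCAC, were searched on both strands and were found in 5.42% of 32851 promoters. The shorter core TGGGAA or TTCCCA, which lies within GTGGGAA, was found in 21.6%. Neither was present in the 8 windows of the members, and for that reason no base is in capitals. This says only that these letters are not in these windows.

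No receptor passed 4-fold in any of the 4 comparisons. Their summed FPKM was 21.5 and 19.0 in DPCs at passage 3 and passage 9, and 19.5 and 21.1 in DSCs, a far narrower range than that of the ligands.

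Notch1 (ENSMUSG00000026923, chromosome 2, 26457903 to 26516663, minus strand), the receptor with the broadest known roles in skin, had 786, 239, 474 and 203 counts. These were 21.4, 6.66, 12.5 and 4.45 CPM, with both passage 3 libraries above both passage 9 libraries. The log2 difference with passage was -1.67 (-1.90 to -1.47) in DPCs and -1.48 (-1.73 to -1.25) in DSCs, with overlapping intervals. Within the receptor sum the share of Notch1 went from 10.7% to 3.66% in DPCs and from 8.15% to 2.29% in DSCs. Antisense genes cover 9.76% of its exonic bases, and the one with more counts, 0610009E02Rik, had 17 to 27 counts.

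Notch2 (ENSMUSG00000027878, chromosome 3, 98013527 to 98150361, plus strand) was the most abundant receptor in every library. It had 5097, 4125, 5966 and 9752 counts, or 139, 115, 157 and 214 CPM. High-passage DSCs were the highest library and high-passage DPCs the lowest. The passage difference was -0.27 (-0.33 to -0.21) in DPCs and 0.44 (0.40 to 0.49) in DSCs. Notch2 made up 56.6% and 52.9% of the receptor sum in low-passage and high-passage DPCs, and 66.6% and 82.0% in DSCs. On the same strand Gm42820, with 10 to 50 counts, shares 5.02% of its exonic bases.

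Notch3 (ENSMUSG00000038146, chromosome 17, 32120820 to 32166880, minus strand) ran in the reverse order. It had 2153, 2560, 1696 and 1319 counts, or 58.5, 71.3, 44.7 and 28.9 CPM, with high-passage DPCs the highest and high-passage DSCs the lowest. Its passage difference was 0.29 (0.20 to 0.37) in DPCs and -0.63 (-0.73 to -0.52) in DSCs. The FPKM of Notch2 over that of Notch3 was 1.81 and 1.23 in low-passage and high-passage DPCs and 2.69 and 5.66 in DSCs. At passage 9 DPCs held 2.46-fold more Notch3 than DSCs and 1.86-fold less Notch2. The sheath and smooth muscle list, with all 5 genes detected in every library, summed to 9432, 3492, 7478 and 6514 CPM. Its part in the Notch3 values was not tested.

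Notch4 (ENSMUSG00000015468, chromosome 17, 34564268 to 34588503, plus strand), a receptor best known from endothelium, had 39, 31, 17 and 48 counts, or 1.06, 0.864, 0.448 and 1.05 CPM. Low-passage DSCs were the lowest library. The difference was -0.28 in DPCs, with an interval of -1.02 to 0.42, and 1.14 (0.41 to 2.12) in DSCs. The endothelial marker Cdh5 had 16, 0, 45 and 0 counts, Tek 59, 0, 114 and 31, and Erg 14, 147, 47 and 28. The 7 endothelial genes summed to 2.90, 4.21, 6.89 and 1.69 CPM, with 1, 5, 1 and 2 of them at 0, and their part in the Notch4 values was not tested.

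All 3 target genes were lower at passage 9 in both cell types, and for Hes1 and Hey1 the counting intervals placed the larger difference in DPCs. Hes1 (ENSMUSG00000022528, chromosome 16, 30064384 to 30067796, plus strand), a repressor that keeps many progenitor cells undifferentiated, had 1538, 397, 946 and 887 counts. The levels were 41.8, 11.1, 24.9 and 19.5 CPM. In DPCs the difference was 3.78-fold (-1.91, -2.08 to -1.76), just short of the threshold, and in DSCs 1.28-fold (-0.36, -0.49 to -0.22). As with Jag1, low-passage DPCs stood above low-passage DSCs, by 0.74 (0.63 to 0.86), and high-passage DPCs below high-passage DSCs, by -0.81 (-0.99 to -0.64).

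Hey1 (ENSMUSG00000040289, chromosome 3, 8663359 to 8667256, minus strand), a repressor of the HEY family, had 85, 6, 72 and 44 counts, or 2.31, 0.167, 1.90 and 0.965 CPM. High-passage DPCs stood far below the other libraries. The fall in DPCs was 13.8-fold (-3.43, -5.27 to -2.61) and the difference in DSCs was 1.97-fold (-0.94, -1.55 to -0.41). The DPC value rests on 6 counts at passage 9, and its interval with halved counts was -6.11 to -2.13. The same value was -2.6 with a prior count of 10 and -2.91 with the deposited FPKM and a pseudocount of 0.1.

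Heyl (ENSMUSG00000032744, chromosome 4, 123233556 to 123249875, plus strand), the third HEY gene and a target known downstream of NOTCH3, had 94 counts in low-passage DPCs and 30 in low-passage DSCs and 0 in both high-passage libraries. Against the 3 counts that a count of 0 allows, it was at least 30.6-fold lower in high-passage DPCs and at least 12.0-fold lower in high-passage DSCs. These bounds take the passage 3 counts as exact. The 95% counting intervals, which cover the error of both libraries, reach up to smaller falls, -4.61 in DPCs and -3.2 in DSCs. With a limit of 6 counts, needed if both mates of a pair were counted, the bounds are 15.3-fold and 6.01-fold. The intervals with halved counts reach up to -3.58 and -2.11. With the deposited FPKM and a pseudocount of 0.1 the value in DSCs was -1.32. With 0.15 FPKM at passage 3 and 0 at passage 9, this pseudocount kept it from reaching 4-fold. At passage 3 DPCs held 3.23-fold more Heyl than DSCs (1.63, 1.08 to 2.34). In these bulk libraries fewer cells of a type and less RNA per cell cannot be told apart. Of the 6 pericyte markers, Kcnj8 and Abcc9 were at 0 in all libraries and Rgs5 had 4 to 18 counts. Cspg4 had 6707, 622, 13959 and 5393 counts, Mcam 8208, 1545, 2283 and 2860, and Pdgfrb, which made up most of the list's sum of 1676, 1036, 2084 and 1359 CPM, had 46770, 34988, 62810 and 53684. In DPCs Cspg4 and Mcam were thus lower at passage 9 by 10.5-fold and 5.18-fold. The Schwann markers Sox10 and Cdh19 also went to 0 at passage 9, from 28 and 33 counts in low-passage DPCs and from 116 and 95 in low-passage DSCs. Summed over its 5 genes the Schwann list was at 8.21, 3.65, 16.2 and 5.10 CPM, and the immune list at 113, 63.7, 164 and 92.2 CPM. The part of the pericyte, Schwann and immune markers in the falls of Heyl and the other Notch genes was not tested.

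The cell types were also compared within each passage. At passage 3 only Dll1 passed 4-fold among the 9 genes, 7.39-fold higher in DPCs (2.54, 1.65 to 4.41), where 1.52% of all genes were 4-fold higher in DPCs and 2.77% in DSCs. Notch2 was the 1 gene of the 9 that was lower in low-passage DPCs than in low-passage DSCs, at -0.18 (-0.24 to -0.13), and the median of the 9 was 0.77, against 0.00 over all genes. At passage 9 Dll1 was 6.49-fold higher in DPCs (2.64, 2.23 to 3.20) and Hey1 5.77-fold higher in DSCs (-2.22, -4.05 to -1.29). Over all genes, DPCs were 4-fold above DSCs for 2.5% and 4-fold below them for 3.91%. Dll1 at passage 3 and Hey1 at passage 9 each rest on a library with 6 counts, and with halved counts their intervals were 1.18 to 5.30 and -4.91 to -0.79. Under a prior count of 10 Dll1 at passage 3 came to 1.78 and Hey1 at passage 9 to -1.53, which ended both calls. Under FPKM with a pseudocount of 0.1 they came to 1.89 and -1.41, which also ended both. This pseudocount is larger than the lower FPKM of each pair, 0.0337 for Dll1 in DSCs and 0.0628 for Hey1 in DPCs. These 4 comparisons share libraries and are not independent of each other.

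A further 51 genes of the pathway were read out as a list that covers other ligands, other targets, the enzymes that add sugars to the receptors, proteins that control ligand uptake and receptor turnover, the proteases and the nuclear complex. The minimum count was met by 42 of them. Of the 7 other targets it was met by 1, Hes6, so the values below say little of other targets. In DPCs 1 rose and 1 fell at least 4-fold with passage, and in DSCs 0 passed 4-fold in either direction. The shares over all genes were 5.58% higher and 4.36% lower in DPCs, and 2.67% higher and 1.16% lower in DSCs. The median change was 0.06 in DPCs and 0.05 in DSCs, against 0.03 and 0.00 over all genes.

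**Figure D4:**
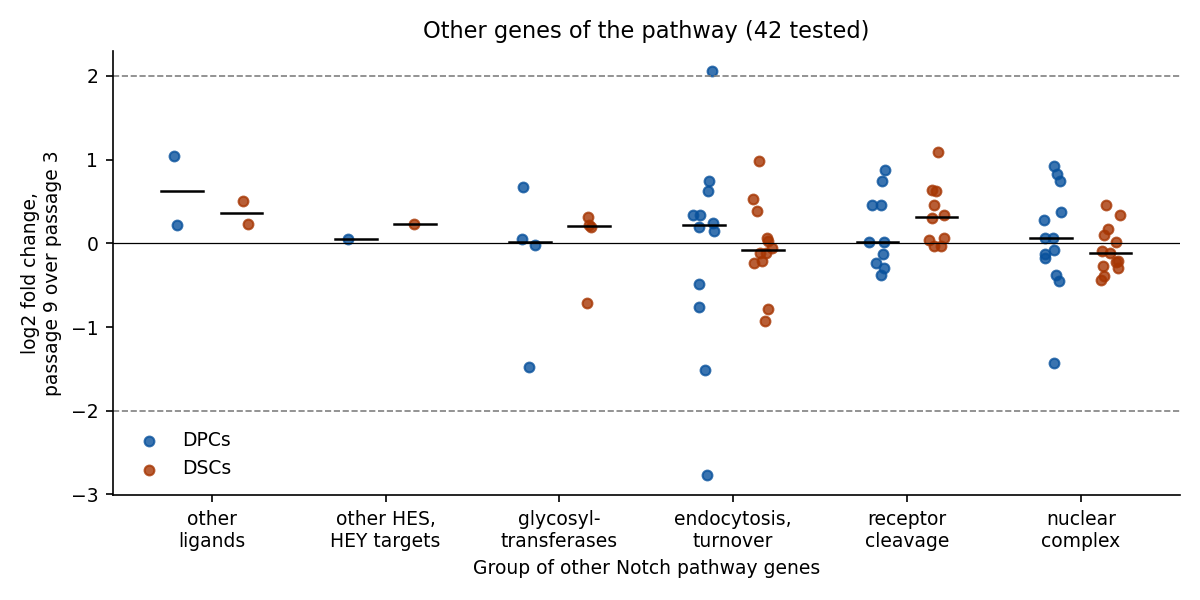
Log2 fold change between passage 9 and passage 3 of the 42 other pathway genes that met the minimum count, by group, in DPCs (blue) and DSCs (brown), with genes as points, group medians as black bars and the 4-fold threshold as dashed lines. In DPCs 1 gene lies above and 1 below the lines. The group of other HES and HEY targets holds 1 gene, Hes6.

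The gene that rose was Dtx3, of the Deltex family of ubiquitin ligases, which by its mean FPKM over the 4 libraries was also the first of its group. At passage 3 Itch and Numbl stood above it. It had 1225, 4984, 1751 and 4153 counts, and its change was 2.06 (1.97 to 2.15) for DPCs and 0.98 (0.90 to 1.06) in DSCs. The gene that fell was Neurl1b, a ubiquitin ligase that acts on Notch ligands, at 46, 5, 23 and 29 counts. Its change in DPCs was -2.77 (-4.85 to -1.84), and in DSCs 0.06, with an interval of -0.77 to 0.93. With the deposited FPKM and a pseudocount of 0.1, neither gene reached 4-fold. The FPKM of Neurl1b was 0.293, 0.112, 0.424 and 0.154, lower at passage 9 in DSCs too, unlike its counts.

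Rbpj, the DNA-binding partner of all Notch receptors, had the highest mean FPKM of the nuclear group over the 4 libraries, though not the highest in each of them. It stood at 58.3, 100, 62.0 and 71.4 FPKM, and its log2 CPM differed with passage by 0.93 (0.89 to 0.97) for DPCs and 0.34 (0.31 to 0.38) in DSCs. Ncstn, a subunit of γ-secretase, had the highest mean FPKM of the cleavage group, with Furin above it in high-passage DPCs. It had a difference of 0.02 (-0.03 to 0.07) between the DPC libraries and of 0.30 (0.26 to 0.34) between the DSC libraries. Poglut1, which adds glucose to the receptors' EGF repeats, differed by 0.05 and 0.19. Dlk2, a ligand-like protein without the domain that activates Notch, differed by 0.22 and 0.50. Hes6, the most abundant of the remaining HES genes, had differences of 0.05 (-0.11 to 0.22) for DPCs and 0.23 (0.05 to 0.41) for DSCs.

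The genes whose pattern over the 4 libraries lay nearest to that of Jag1 were sought among 12191 other genes with a mean of at least 100 counts, by the distance of log2 CPM centred on each gene. They were Chchd10 (0.47), Trim66 (0.58), Fam189a2 (0.60), Adamts12 (0.73) and Arsi (0.75). Chchd10 had 1207, 99, 441 and 170 counts. With 4 libraries such likeness is a description of these libraries alone.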

How the data were processed

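RNA of 4 libraries was measured. The authors gave whole-number counts for each gene, not normalized, in 1 deposited table. The deposited FPKM, 1 table a library, had been divided by the authors by transcript length and depth. The submitters' processing notes name Bowtie 0.12.2 and the builds mm8 and mm9 without their role, yet 94.1% of the 51633 gene IDs found in GENCODE M21 had the same position on GRCm38, and positions are given as in the tables. The counting program and use of strand were not given in the sources used here. Even counts were in excess in every library (1339 genes with 2 counts against 583 with 3 for DPCs at passage 3), a pattern that arises when both mates of a pair are counted.

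Counts were scaled by TMM in edgeR 4.0.16 (R 4.3.3) on genes with a mean of at least 10 counts, and log2 CPM was computed with a prior count of 2. With 1 library a group no test was run. Intervals are exact Clopper-Pearson intervals of the share of 1 library in the reads of 2, at 95%, and like the floor of 3 counts they cover counting error only. The steps were tested on simulated data. Alternatives were total counts, DESeq2 1.42.0 size factors, upper-quartile scaling, prior counts of 0.5 and 10, FPKM with a pseudocount of 0.1, other minimum counts, a 2-fold threshold and halved counts.

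The members and gene lists were chosen with earlier results of these data known. Named were all members, pathway genes past 4-fold with passage, the gene of highest mean FPKM in each pathway group and the 5 genes nearest to Jag1. Other genes are markers, overlapping genes or genes named after their values were seen. For library preparation the labels name a TruSeq kit, whereas a NEBNext kit is described in the study.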

Additional observations from a re-analysis of the deposited data

Results flagged for a closer look

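The passage 9 over passage 3 values of Notch2 (-0.27 in DPCs and 0.44 in DSCs) and Notch3 (0.29 and -0.63) had opposite signs in the 2 cell types. All 4 were short of 4-fold, and single libraries cannot show whether they are changes with passage. The value in DPCs minus that in DSCs was -0.71 for Notch2 and 0.91 for Notch3 on the log2 scale. The DPC over DSC values of Jag1 (1.28 at passage 3 and -0.82 at passage 9) and Hes1 (0.74 and -0.81) also had opposite signs and were short of 4-fold. The contrast at passage 3 minus that at passage 9 was 2.10 for Jag1 and 1.56 for Hes1. These differences were not tested, since each group had 1 library.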

How the results depend on the processing

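With the 3 other scalings (total counts, upper quartile and the size factors of DESeq2), all counts of called members and pathway genes kept their values, no log2 fold change of a member changed by more than 0.10, and no member changed sign under these, the other prior counts or FPKM. With a minimum mean of 100 counts, 5 members were left, and the number called was 1 for passage in DPCs (Jag1) and 0 for passage in DSCs and for the cell types at passage 3 and at passage 9. A prior count of 10 left 1 member called for passage in DSCs (Heyl), 0 for the cell types at passage 3 and 1 at passage 9 (Dll1). Deposited FPKM with a pseudocount of 0.1 gave 1 for passage in DSCs, now Jag1, and 0 and 1 for the cell types. Dll1 and Heyl in DSCs stayed under 4-fold there. Their lower FPKM, 0.0337 for Dll1 and 0 for Heyl, is below the pseudocount, which limits the value. A 2-fold threshold called 5 members for passage in DSCs and 4 for the cell types at passage 3. For the other pathway genes, passage in DPCs gave 1 with a prior count of 10, 0 with FPKM, 5 without a minimum count, 1 with a minimum of 100 and 6 at 2-fold, and passage in DSCs gave 1 at 2-fold. With halved counts 33 of the 34 members' intervals that excluded 0 still did so, the exception being Jag2 between the cell types at passage 9. Genes under about 100 counts (Jag2, Dll1, Notch4, Hey1 and Heyl) are limited by depth, and leaving out a library was not possible with 1 a group.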

Other observations

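Genes outside the rule for named genes are given here and were picked after their values were seen. Hey2, the remaining HEY gene, had 20, 0, 4 and 2 counts, in the order used above, and was at least 6.50-fold lower in high-passage than in low-passage DPCs. Nrarp, a feedback inhibitor that Notch signalling induces, had 8, 0, 2 and 1 counts, and Hes7 had 0, 21, 0 and 6, at least 7.18-fold higher in high-passage DPCs. If both mates were counted, the bounds of Hey2 and Hes7 are 3.25-fold and 3.59-fold. Hes3 and Hes5 had 0 counts in all libraries. Lfng, which adds sugars to Notch receptors and shifts their response from Jagged toward Delta ligands, had 574, 199, 510 and 375 counts, a difference with passage of -1.48 (-1.73 to -1.26) in DPCs and -0.71 (-0.90 to -0.51) in DSCs. Dlk1, a relative of the Delta ligands, had 16, 34, 116 and 164 counts and was lower in low-passage DPCs than in low-passage DSCs by -2.68 (-3.67 to -2.05).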
